A study of Drosophila melanogaster with 4 samples.

Results

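Wide H3K27me2 domains are regions of at least 10000 bp in the authors' combined list of enriched regions, made for the replicate set as a whole. There were 741 of them among the 17184 regions of that list, 4.31% of the regions holding 10.9 Mb, or 18.6%, of its covered sequence. The mark is histone H3 dimethylated at lysine 27, mapped by chromatin immunoprecipitation and sequencing (ChIP-seq) with the antibody Ab24684. The material was Drosophila melanogaster embryos of the wild-type strain Oregon-R, a standard laboratory stock, staged 14 to 16 h. The study holds 2 ChIP samples and 2 input samples, and 1 region list was deposited for each ChIP sample beside the combined list. All groups share the strain, the stage and the crosslinking with 1.8% formaldehyde, and whole embryos mix all tissues, so a domain may be marked in some cells and not in others. Nothing in the labels ties the ChIP samples to different collections of embryos, and their spread may be technical.

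Methylation of lysine 27 is the work of Polycomb repressive complex 2, whose catalytic subunit in flies is E(z), with Su(z)12 and esc as partners. The trimethylated form marks the classical Polycomb target genes and is bound by the chromodomain of Pc. The dimethylated form is known to be far more widespread in fly chromatin, over inactive and intergenic sequence, and occupies a residue that CBP would otherwise acetylate. It is therefore a mark of broad blankets rather than of sharp sites, and the wide domains are its longest regions called here.

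The members were chosen by their width in the combined list, so widths and their order are a description. The combined list was made for the same samples as the replicate lists, so coverage in a replicate list is no independent test of a domain either, and no p-value is given. The lists hold no read counts, so the depth is unknown, and sequence outside regions is called uncalled rather than unmarked. Positions are those of FlyBase release 5, as in the files. No gene table of that release was available here, so the domains were not assigned to genes.

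The domains ran from 10001 to 56991 bp, with a median of 12875 bp and quartiles of 11207 and 16573 bp, against a median of 2211 bp in the 16443 narrower regions. Most lay near the minimum width: 280 were under 12000 bp, 223 were from 12000 to under 15000 bp, 148 from 15000 to under 20000 bp, 74 from 20000 to under 30000 bp, and 16 reached 30000 bp. The members nearest to the minimum were 10001 bp wide on 3R from 9024284 to 9034284 and 10013 bp wide on 2R from 10759128 to 10769140. In the first of these, regions of replicate 1 took up 48.6% of the length and those of replicate 2 took up 55.6%, and the other had 92.5% and 66.9%. Just outside lay a region of 9991 bp on 3L, from 8701932 to 8711922, covered at 78.2% and 97.7%, and another of 9989 bp on X, from 19612510 to 19622498, covered at 93.5% and 67.6%. Just inside and just outside the minimum width the values overlapped in replicate 1, and in replicate 2 both outside regions were above both inside ones.

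The 5 major arms held 735 of the 741 wide domains, and 14786 of the 16443 narrower regions. Arm 2R held 194, or 9.17 per Mb, and 3R held 188, or 6.74 per Mb. On 3L there were 143, or 5.83 per Mb, on 2L 116, or 5.04 per Mb, and on X 94, or 4.19 per Mb. The ends of this order, 2R and X, also stood at the ends for the share of called sequence that lay in wide domains, with 29.5% on 2R and 14.7% on X. Wide domains took up 14.4% of the whole of 2R and 6.00% of X, with 2L at 7.37%, 3L at 8.56% and 3R at 9.46% between them. Of all regions on 2R, 8.01% were wide, against 3.33% on X and 3.62% on 2L. Arms are not replicates, and 1 combined list gives no error for these densities.

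**Figure D1:**
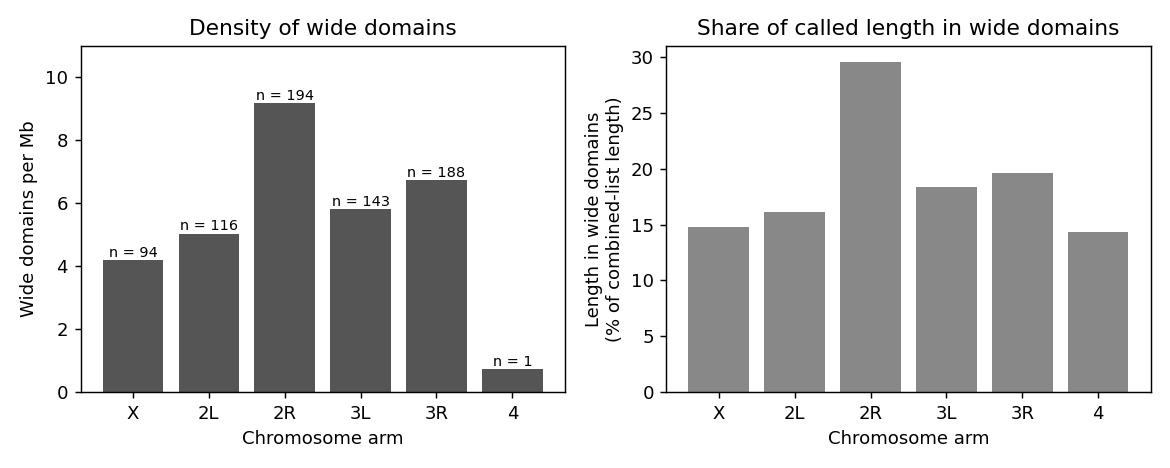
Wide domains by chromosome arm in the combined list. Bars in the left panel give domains per Mb of arm with the number of domains above each bar, and bars in the right panel give the percent of combined-list length that lay in wide domains. Arm 2R is highest in both panels at 9.17 per Mb and 29.5%, and chromosome 4 carries a single domain.

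Outside the major arms the combined list had 6 wide domains. The small, largely heterochromatic chromosome 4 had 1, of 15645 bp from 774256 to 789900, with 74.6% of its length covered in replicate 1 and 57.9% in replicate 2. Heterochromatin scaffolds had 5, namely 2 on 3LHet, 2 on 3RHet and 1 on 2RHet, and there were 0 on 2LHet, XHet, YHet and U, the sequence assigned to no chromosome. The widest of these spanned 11555 bp on 3LHet from 189250 to 200804, with 76.9% covered in replicate 1 and 51.1% in replicate 2. On 3RHet the widest ran from 238 to 11470, at the very start of the scaffold, with 70.1% and 73.6% covered, and the single one on 2RHet ran from 698148 to 708352, with 80.5% and 55.5%. The 5 domains on heterochromatin scaffolds were thus between 10205 and 11555 bp wide, close to the minimum, and were covered in both replicates. Among 676 regions on U none was wide.

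On X the wide domains were fewer but carried higher scores, the authors' enrichment value per region, whose scale is not named. The median score was 0.661 for the 94 domains on X and 0.594 for the 641 on the autosomal arms, and the same order was present among narrower regions, at 0.463 and 0.407. Scores of all wide domains lay between 0.353 and 1.01, with a median of 0.602, which is percentile 86.1 of the whole list. The quartiles were percentiles 77.7 and 91.9, and the top wide domain stood at percentile 98.8. Within the wide domains score and width were only loosely related (Spearman's rho of 0.143 across 741 domains, against 0.536 across all 17184 regions). Score was related more closely to coverage in the replicates (rho of 0.765 with the mean covered share). Domains share libraries and neighbours, and scores and coverage come from the same reads, so these values describe the lists only. Embryo sex is not in the labels, so the copy number of X is unknown, and its lower density of wide domains cannot be told apart from lower read depth.

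The length of the wide domains was mostly covered by regions of each replicate list taken alone. Replicate 1 covered 81.5% of their summed length and replicate 2 covered 69.4%, a mean of 75.4% ± 8.56 (SD, n = 2). For regions narrower than 10000 bp the same shares were 56.7% and 43.2%, or 50.0% ± 9.55 (SD, n = 2). Replicate 1 was higher in both classes, and the difference between the classes was larger than the spread between replicates. Over the single domains, coverage in replicate 1 ran from 0% to 99.9% with a median of 84.1%, and in replicate 2 from 15.7% to 98.5% with a median of 70.5%. Replicate 1 covered more than replicate 2 in 579 domains and less in 162, or 21.9%. Leaving out ties, replicate 2 was the higher one in 32.6% of narrower regions and in 27.8% of those from 5000 to under 10000 bp. Coverage of the same domain in the replicates was related with a rho of 0.373 across the 741 domains.

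Of the 741 domains, 740 overlapped both replicate lists by at least 1 bp, against 41.1% of all regions of the combined list. At least 50% of the length was covered in both replicates in 624 domains, or 84.2%, against 29.4% of all regions. At least 90% was covered in both in only 31 domains, or 4.18%, against 1.68% of all regions. A wider region has more room to touch a replicate region, so the first of these counts follows in part from the choice of members. Regions just below the minimum, from 8000 to under 10000 bp, overlapped both lists in 99.2% of cases. At least 50% was covered in both replicates in 66.5% of them, so these high shares are not particular to wide domains. Coverage below 50% in both replicates was seen in 10 domains, below 50% in replicate 1 in 25 and below 50% in replicate 2 in 102.

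Among the wide domains, median coverage was highest in the widest class. From 10000 to under 12000 bp the median covered share was 82.9% in replicate 1 and 68.6% in replicate 2, and at 30000 bp and over it was 90.7% and 79.8%. All 16 domains of at least 30000 bp had 50% or more covered in both replicates, and their lowest values were 70.0% in replicate 1 and 62.6% in replicate 2. Just below the minimum, regions of 8000 to under 10000 bp had medians of 80.4% and 64.3%, so coverage showed no step at 10000 bp. Rank of width and rank of mean coverage were weakly related inside the set (rho of 0.153 across 741 domains).

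**Figure D2:**
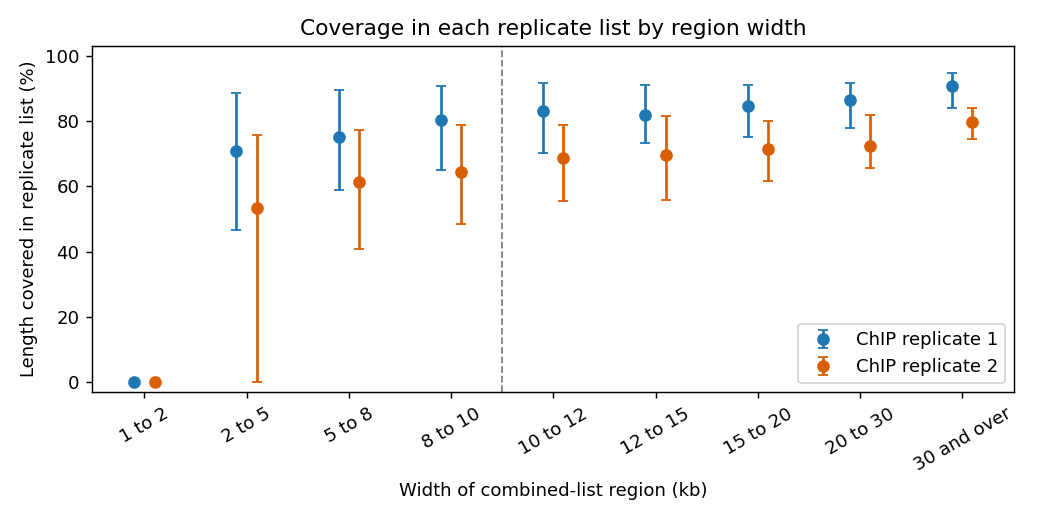
Percent of each combined-list region covered by regions of ChIP replicate 1 or 2, by width class in kb. Points are medians and bars run from the lower to the upper quartile over regions; the dashed line marks the minimum width of 10 kb. Medians of replicate 1 go from 82.9% in the first class of wide domains to 90.7% in the last, and those of replicate 2 from 68.6% to 79.8%, with replicate 1 above replicate 2 in each wide class.

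The best covered domains were not the widest ones. A domain of 14239 bp on 2R from 2649250 to 2663488 had 98.7% covered in replicate 1 and 98.1% in replicate 2, and in replicate 2 it was a single region. On 2R from 18510626 to 18520794, a domain of 10169 bp was a single region in each replicate, with 98.8% and 96.3% covered. The same held on 2R from 4225530 to 4236500, a domain of 10971 bp with 98.0% and 95.9%. These near-complete domains had scores at percentiles 97.0, 95.9 and 96.2 of the combined list. The next were 16745 bp on 3R from 24696704 to 24713448, with 98.6% and 95.2%, and 23485 bp on 2L from 5121648 to 5145132, with 96.3% and 96.6%.

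At the other extreme stood 5 domains, 3 on 3L and 2 on 3R, all between 10381 and 11541 bp wide. The lowest, on 3L from 13616276 to 13626714, had no base in a region of replicate 1 and 44.1% of its length in 3 regions of replicate 2. It was the single wide domain with an empty replicate. The next on 3L, from 5014786 to 5025634, had 17.0% covered in replicate 1 and 38.1% in replicate 2, and the one from 18724112 to 18735524 had 37.9% and 24.2%. On 3R the domain from 1698792 to 1709172 had 29.5% and 34.1%, and the one from 18157078 to 18168618 had 26.5% and 40.8%. The scores of these 5 lay between percentiles 19.7 and 46.0 of the list, whereas 3 in 4 wide domains were above percentile 77.7. With both replicate lists put together, between 43.0% and 65.9% of the length of each of the 5 was called.

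Seen from the replicate lists, wide domains held a large part of the called sequence. They contained 8.88 Mb of replicate 1 and 7.56 Mb of replicate 2, or 24.6% and 26.5% of all sequence those lists covered. Replicate regions touching a wide domain had a median width of 3399 bp in replicate 1, against 2044 bp elsewhere, and of 2614 bp in replicate 2, against 1939 bp. Their median scores stood at percentiles 66.7 and 62.0 of their own lists, against 46.7 and 47.4 elsewhere. Regions of at least 10000 bp were rare in the replicates, 131 in replicate 1 and 47 in replicate 2, and 130 and 46 of them overlapped a wide domain. Most wide domains thus held no replicate region of that width.

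On average a wide domain overlapped 2.75 regions of replicate 1 and 3.04 of replicate 2, up to 8 and 13. It was a single region in replicate 1 in 90 cases, in replicate 2 in 68, and in both in 15. The largest replicate region inside a domain took up a median of 46.0% of its length in replicate 1 and 33.9% in replicate 2. In 306 domains, or 41.3%, 1 region of replicate 1 filled 50% or more of the length, and in replicate 2 this was so in 151, or 20.4%.

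The stretches of a wide domain outside replicate regions fell into those at an end of the domain and those between replicate regions, called internal breaks here. Counting both kinds, there were 3.51 stretches per domain in replicate 1 and 3.90 in replicate 2, a mean of 3.71 ± 0.271 (SD, n = 2). Internal breaks made up 1.74 and 2.04 of these, or 1.89 ± 0.209 (SD, n = 2). In all there were 1291 internal breaks in replicate 1 and 1510 in replicate 2. They were short, with medians of 549 bp for replicate 1 and 785 bp for replicate 2, and 47.6% and 37.4% were under 500 bp. Breaks of 5000 bp or more numbered 5 and 22, and the longest spanned 8141 bp (replicate 1) and 7505 bp (replicate 2). Internal breaks took up 10.1% of the domain length in replicate 1 and 15.7% in replicate 2, and end stretches 8.43% and 14.9%. Both replicates had at least 1 internal break in 595 of the 741 domains, or 80.3%, and neither had one in 15.

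Breaks of the replicates lay in part at the same places. Of the internal breaks of replicate 1, 62.5% overlapped, by at least 1 bp, a stretch uncalled in replicate 2, either at an end or internal. Of those of replicate 2, 47.2% overlapped one in replicate 1. Counting only internal breaks of the other replicate, the shares were 52.4% and 43.6%. Short breaks were more often bridged in the other replicate. Under 500 bp the share overlapping any uncalled stretch was 51.9% for replicate 1 and 31.6% for replicate 2. From 2000 to under 5000 bp it was 90.6% and 73.2%. A longer break has more room to overlap, which this measure does not remove. Most of the length of such breaks was called in the other replicate, with medians of 63.3% for breaks of replicate 1 and 86.4% for those of replicate 2. Under 500 bp these medians were 88.2% and 100%. Measured by base over whole domains, ends included, 51.8% of the sequence uncalled in replicate 1 was also uncalled in replicate 2. Of the sequence called in replicate 1, only 25.8% was uncalled in replicate 2. The converse shares were 31.4% and 12.9%. In sum, 60.4% of the length was called in both replicates, 21.0% in replicate 1 only, 8.93% in replicate 2 only and 9.61% in neither. The part called in neither was made up of stretches reaching a domain end, with 4.75% of the domain length, and other stretches, with 4.86%. For narrower regions 31.5% was called in both and 31.6% in neither.

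**Figure D3:**
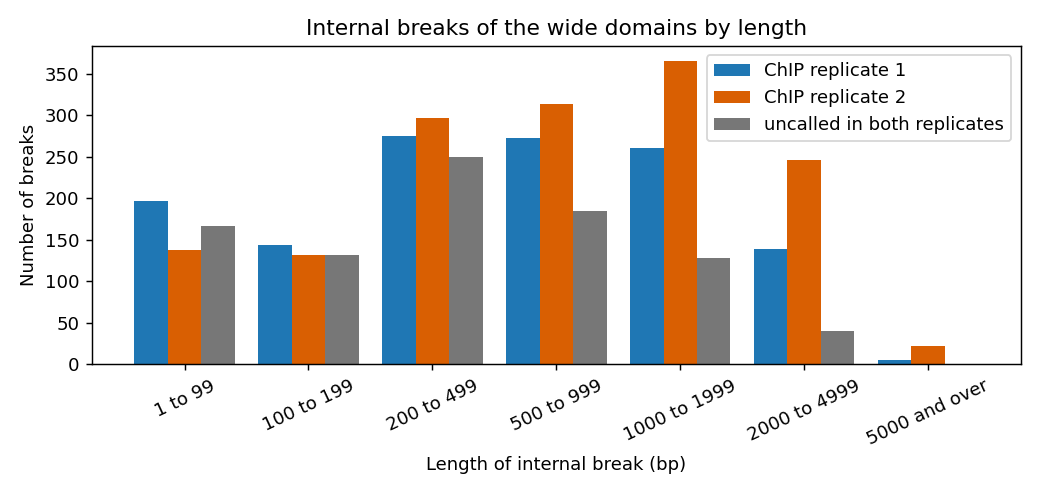
Number of internal breaks of the 741 wide domains by length in bp, for ChIP replicate 1, ChIP replicate 2 and sequence uncalled in both. Breaks uncalled in both are stretches that reach no domain end, and may be part of an end stretch in either replicate alone. Breaks under 500 bp make up 47.6% of those in replicate 1, 37.4% in replicate 2 and 60.9% of the breaks uncalled in both, and 0 of the latter reach 5000 bp.

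Sequence uncalled in both replicates formed 901 internal breaks with a median of 370 bp, and 60.9% of them were under 500 bp. Internal here means reaching no domain end, so such a stretch may be part of an end stretch in either replicate alone. In 204 domains, or 27.5%, no internal stretch was uncalled in both. With both replicate lists put together, at least 95% of the length was called in 275 domains, or 37.1%. A stretch of at least 2000 bp uncalled in both occurred in 78 domains, or 10.5%. The longest was 4093 bp at the lower end of a domain on 3R, from 25257082 to 25261174. The longest that reached no domain end was 4008 bp on 3R from 13022995 to 13027002, part of an end stretch in replicate 1. Its domain of 12091 bp was covered at 30.7% and 39.1%. Next came 3835 bp on 3L from 18725626 to 18729460, in the wide domain with the lowest score, 3720 bp on 3L from 19268613 to 19272332, and 3607 bp on 3R from 10666390 to 10669996 at the lower end of its domain. These 5 domains were between 10701 and 12477 bp wide, and in each the combined list held the stretch as part of a single region.

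The widest domain of each arm shows how the pieces fit. On 2R, from 4685868 to 4742858, replicate 1 had 7 regions, separated by 6 breaks of 25 to 590 bp, and covered 96.4% of the 56991 bp. Its longest region there was 21866 bp. Replicate 2 had 13 regions over the same sequence and covered 82.1%, and its 12 breaks ran from 48 to 2723 bp. The breaks of the replicates coincided at 3 places, over 116, 192 and 47 bp, so that 99.1% was called in at least 1 replicate.

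On 3L, from 22185070 to 22236048, each replicate had 8 regions and 7 internal breaks, with 80.6% and 75.7% covered. Here the longest break of each replicate overlapped a long break of the other over part of its length. Replicate 1 had a break of 2075 bp from 22187194 to 22189268, which lay wholly inside a break of 2934 bp in replicate 2. A break of 1716 bp in replicate 2, from 22224540 to 22226255, lay wholly inside one of 3778 bp in replicate 1. Of those 3778 bp, 54.6% was called in replicate 2. Other breaks were wholly called in the other replicate, among them 1191 bp in replicate 1 and 1519 and 1135 bp in replicate 2. The domain of 34435 bp on 2L, from 20516486 to 20550920, was alike, with 8 regions and 7 breaks in each replicate, 70.0% and 62.6% covered, and a stretch of 3480 bp uncalled in both from 20526692 to 20530171.

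On X the replicates differed more in structure. Over the 38911 bp from 1293896 to 1332806, replicate 1 had 3 regions, 1 of them 24054 bp long, and covered 96.3%. Replicate 2 had 11 regions with 10 breaks of 548 to 2264 bp and covered 71.0%. Of those 10 breaks, 8 lay wholly inside called sequence of replicate 1. On 3R, the domain of 36929 bp from 6276566 to 6313494 had 3 regions of replicate 1 with 99.4% covered and 6 regions of replicate 2 with 82.7%.

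**Figure D4:**
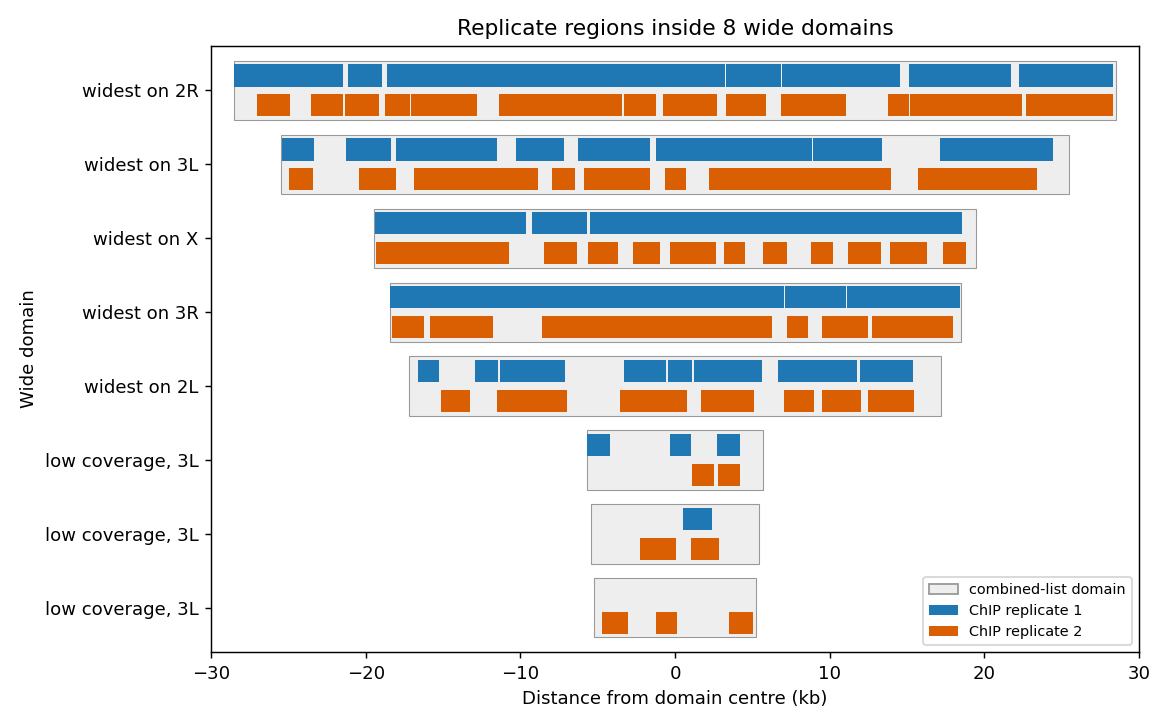
Replicate regions inside 8 wide domains, each drawn to scale around its own centre in kb. Grey boxes are combined-list domains, blue bars regions of ChIP replicate 1 and orange bars regions of ChIP replicate 2. The upper 5 domains are the widest of each major arm, and the lower 3 are the least covered, of which the bottom one has no region of replicate 1.

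Along a domain, coverage was even except close to its ends. With each of the 735 domains on the major arms divided into 20 equal parts, mean coverage over the 10 middle parts ran from 82.7% to 85.7% in replicate 1, and for replicate 2 from 70.9% to 75.7%. The outermost part on either side had 53.8% in replicate 1 and 36.7% in replicate 2 on average. Neither replicate showed a dip or a peak at the centre, where coverage was 84.1% and 73.2%. From the end of a domain to the first called base the median distance was 223 bp for replicate 1 and 544.5 bp for replicate 2, over the 1480 ends of the domains found in both. The replicates placed this outermost base within 500 bp of each other at 51.4% of ends, and at least 2000 bp apart at 15.3%. Replicate 1 reached nearer to the end at 63.2% of ends and replicate 2 at 36.5%.

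**Figure D5:**
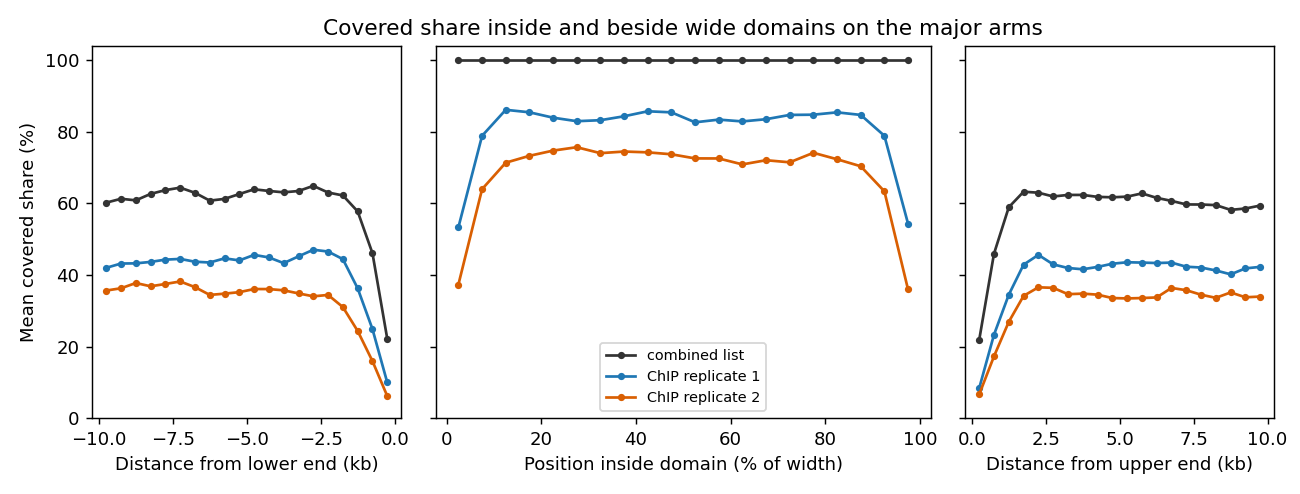
Mean covered share in percent inside and beside the 735 wide domains on the major arms. The middle panel divides each domain into 20 equal parts, and the outer panels give 10 kb on either side in steps of 500 bp; lines are the combined list and the 2 ChIP replicates. Coverage inside is level at 82.7% to 85.7% in replicate 1 and 70.9% to 75.7% in replicate 2 and lower in the outermost parts, at 53.8% and 36.7%, while beside the domains the combined list goes from 22.0% in the first 500 bp to 59.9% between 9 and 10 kb.

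Most wide domains had another region close by, on 1 side or on both. The nearest other region of the combined list, of any width, lay a median of 369 bp away, against 617 bp for narrower regions. Within 1 kb there was another region for 570 domains, or 76.9%, against 62.9% of all regions. In the first 500 bp beyond a domain 22.0% of the sequence lay in combined-list regions, and between 9 and 10 kb the share was 59.9%. The low value next to the domain is set by its own end. Over 50 kb on either side, which may hold other wide domains, the combined list covered a median of 57.8% around wide domains and 49.5% around narrower regions, with 46.2% as the share of the major arms. Replicate 1 covered 38.4% around wide domains and 28.5% around narrower regions, with 29.0% as its share of the major arms. Replicate 2 covered 30.5% and 22.1%, with 23.0% as its share of the major arms. In all 3 lists the median neighbourhood of a wide domain thus held more called sequence than the arms as a whole, and in the combined list 539 of 735, or 73.3%, were above that share, as were 57.8% of narrower regions. The lowest such neighbourhood had 6.88% and the highest 95.3%.

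Distances between wide domains ranged widely. Within 50 kb there was another wide domain for 488 of the 741, or 65.9%, within 10 kb for 273, or 36.8%, and within 1 kb for 110, or 14.8%. The median interval between neighbouring wide domains was 61.8 kb, with quartiles of 15.0 and 174 kb, and the mean was 143 kb. On 2R the median interval was 37.7 kb and 76.3% of domains had another within 50 kb. On X the values were 88.3 kb and 59.6%, on 2L 79.6 kb and 63.8%, on 3L 62.4 kb and 64.3%, and on 3R 63.1 kb and 62.8%. A median of 8 narrower regions lay between neighbouring wide domains, and in 90 intervals there was none.

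The closest neighbours were almost continuous. On 2R a domain of 21951 bp from 4177684 to 4199634 and one of 14499 bp from 4199634 to 4214132 shared their boundary base. On 3L the domains from 14229298 to 14240304 and from 14240306 to 14261240 were 1 bp apart. The next gaps were 11 bp on 2R, after 18238018, 13 bp on 3R, after 12426834, and 23 bp on 2L, after 901796. Of these gaps, the 1 on 2L was covered in replicate 1, and the gaps on 3L, 3R and the second on 2R had no base in either replicate. In all 55 neighbouring pairs were 1 to 999 bp apart, and 43 of these gaps had no base in a region of either replicate, 3 were wholly covered in replicate 1 and 0 in replicate 2. Counts of wide domains also depend on how narrow gaps are treated across the whole list. Merging all combined regions less than 1 kb apart, narrower ones included, gave 1683 wide domains in place of 741.

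Linking wide domains that were at most 50 kb apart gave 155 runs with 488 domains, and 253 domains stood alone. There were 81 runs of 2 domains, 33 of 3 and 24 of 5 or more, of which 11 were on 2R, 5 on 3L, 4 on 3R, 3 on 2L and 1 on X. The run with the most members had 12, on 3L from 21834364 to 22250732. Over its 416 kb the combined list covered 79.3%, replicate 1 covered 63.1% and replicate 2 covered 54.5%, and wide domains alone made up 47.4%. The next had 11 domains over 289 kb on 2R from 15820348 to 16109784, with 71.4% covered in replicate 1 and 48.4% in replicate 2. The third had 10 domains over 353 kb near the tip of X, from 711326 to 1063974, with 50.5% and 44.8%, although X had the lowest density of wide domains of the major arms. Domains in runs had a median width of 13292 bp and those alone 12279 bp, and their coverage was alike, at 84.0% and 84.1% in replicate 1 and 70.9% and 69.3% in replicate 2.

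Density also differed between windows of 1 Mb. The 117 full windows of the major arms had a median of 5 wide domains and at most 21, on 3L from 22 to 23 Mb, and the next was 2R from 4 to 5 Mb with 16. Windows with 10 or more made up 19.7% of the windows and held 40.1% of the wide domains in them. Windows of 14 wide domains lay near the end of 3R, from 25 to 26 and 26 to 27 Mb, at the start of 2L, from 0 to 1 Mb, and on 2R from 15 to 16 and 18 to 19 Mb. In 5 windows there was none, namely X from 9 to 10 and from 21 to 22 Mb, 2L from 17 to 18 Mb, 2R from 0 to 1 Mb and 3L from 23 to 24 Mb. The windows on 2R and 3L lie at the centromere-proximal ends and had only 10.3% and 18.7% of their sequence in the combined list.

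The other windows without wide domains had more called sequence, though less than their arms as a whole, at 40.7% on X and 45.8% on 2L. On X from 9 to 10 Mb the combined list covered 34.8%, on X from 21 to 22 Mb 37.9%, and on 2L from 17 to 18 Mb 38.0%. The window on X from 21 to 22 Mb is the last full one of its arm and also lies at the centromere-proximal end. The longest interval between neighbouring wide domains of an arm ran 1944 kb on X from 8283555 to 10227221 and held 233 narrower regions covering 32.0% of it. Next were 1776 kb on X from 12009149 to 13785181 with 258 regions covering 36.7%, and 1744 kb on 2L from 16791035 to 18535351 with 282 regions covering 39.7%. Across the 117 windows the number of wide domains and the combined-list share were related with a rho of 0.629, as a description of windows that share their sequence in both measures. Intervals of over 1 Mb numbered 10 and those of over 500 kb numbered 40.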

How the data were processed

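The ChIP-seq files are 3 lists of regions, 1 for each of 2 H3K27me2 ChIP samples and 1 combined list. Each region carries a score, a value the authors deposited on a scale that the file headers do not name, so scores were compared only within 1 list. Start and end positions were deposited by the authors and are on FlyBase release 5, per the file headers. Per the submitters' processing notes, Bowtie 0.12.7 was among the tools. The method by which regions were called and replicates pooled was not given in the sources used here. No list of the 2 inputs was used here. All 17184 combined regions start and end at even positions, whereas in replicate 1 both ends are even in 3219 of 12968 regions, and 10 combined regions share 1 base with the next.

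A covered share is the percent of bases of a region that lie in regions of another list. Members and lists were chosen with earlier results of these data known. With 2 replicates an exact permutation test could not pass a threshold, so values are given as mean ± SD (n = 2) with no test. Regions named were the widest on each scaffold, the 2 on either side of the minimum width, the 5 least and 5 best covered, the 5 with the longest stretch uncalled in both replicates, the 5 with the most stretches, the 5 nearest pairs and the 3 runs with the most members. Long intervals and 1 Mb windows were named after their values were seen. Alternatives were other minimum widths, distance limits and break lengths, merging below 1 kb, the median score as a minimum, the major arms alone and each replicate alone. Interval code was tested on simulated data. Tools were numpy 2.4.6 and pandas 2.3.3 in Python 3.11.15, with scipy 1.17.1 for rank correlations and matplotlib 3.10.9 for figures.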

Additional observations from a re-analysis of the deposited data

How the results depend on the processing

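The number of wide domains depended on the minimum width by construction, with 1215 at 8000 bp, 461 at 12000 bp and 90 at 20000 bp, and merging combined regions less than 1 kb apart gave 1683. Coverage in the replicate lists lay between 73.8% and 79.8% over the other widths, merged replicate regions and the major arms alone, and between 69.4% and 81.5% with either replicate left out. It was 60.3% with replicate regions at or above the median score, which removes regions by construction. With combined regions merged below 1 kb, which adds the gaps between them, it was lower, at 66.1% in replicate 1 and 54.1% in replicate 2. The share of wide domains with another near was 52.8% with a limit of 25 kb and 79.9% with 100 kb, 78.0%, 55.1% and 32.2% with minimum widths of 8000, 12000 and 20000 bp, and 87.2% with merging. Stretches per domain numbered 1.96 counting those of at least 500 bp and 1.30 counting those of at least 1000 bp. They numbered 2.74 with the median score as a minimum, and lay between 3.51 and 3.90 with either replicate left out. In replicates 1 and 2 they numbered 3.18 and 3.44 at a minimum width of 8000 bp, and 4.93 and 5.83 at 20000 bp. Merging below 1 kb gave 4.71 and 4.63 for combined regions, and 2.01 and 2.56 for replicate regions. X minus autosomal arms was -2.44 wide domains per Mb, lay between -3.25 and -1.79 in most alternatives, and was -0.38 at 20000 bp, where all densities are lower. As a ratio, X over autosomal arms was 0.632, with 0.539 at 20000 bp and 0.796 with merging. No paired analysis was possible because only the ChIP samples have lists, which leaves no second group to pair. The unknown depth limits what can be said of uncalled sequence.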
